A study of Mus musculus with 13 samples.

Results

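The comparison set mouse 4T1 tumours from PDGFRb-TK hosts in which angiopoietin-2 was blocked with an antibody (TK/anti-Ang2, 3 arrays) against 4T1 tumours from wild-type hosts that received control IgG (WT/IgG, 3 arrays). These are 6 of the 13 arrays of the series. The members were the genes with a probe detected above background, at a detection p under 0.05, on at least 3 of the 6 arrays. They were 10544 of the 19057 genes to which the probe annotation gives a single symbol. 4T1 is a transplantable mammary carcinoma line that spreads readily in mice, and it was implanted here at its site of origin. The PDGFRb-TK transgene places a viral thymidine kinase under the Pdgfrb promoter, so that ganciclovir is toxic to dividing cells in which that promoter is active. All hosts, wild type included, were injected with ganciclovir according to the labels, which state no age and no dose. A further group of PDGFRb-TK hosts with control IgG (TK/IgG, 3 arrays) was in the same fit and is quoted beside the main values. It shares arrays with the comparison, so its values are set out and not tested against it. The compared groups differ in host genotype and in antibody at once, so their difference alone cannot tell the parts of genotype and antibody apart. TK/IgG differs from WT/IgG in host genotype and from TK/anti-Ang2 in antibody. Wild-type hosts with the antibody are not among the groups, so what the antibody does outside PDGFRb-TK hosts is not known. The transgene field of the labels reads positive for every sample, wild type included, so the groups were taken from the titles. Nothing in the labels says that replicates are separate animals, so the p-values measure the spread between these arrays, which may be technical.

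Pericytes wrap the endothelial tube of small vessels and depend on platelet-derived growth factor B from the endothelium, which they sense through the receptor encoded by Pdgfrb. Fibroblasts carry the same receptor. Angiopoietin-1, made by mural cells, activates the receptor Tie2 (Tek) on endothelium and favours quiet, covered vessels, whereas angiopoietin-2, released by endothelium, acts mostly as its context-dependent antagonist and is abundant in tumour vessels. The phosphatase VE-PTP (Ptprb) removes phosphate from Tie2.

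Values below are log2 signals after background correction and quantile normalisation, and a difference is the mean of TK/anti-Ang2 minus the mean of WT/IgG on that scale. Median probe signals before correction were 119.1 to 134.7, and 40.6 to 43.2% of probes were detected per array. TK/anti-Ang2 replicate 2 stood apart, with a median correlation across genes of 0.932 with the other 8 arrays, against 0.967 to 0.976 for the rest. Its mean level was above the next highest of the 9 arrays by 2.52 for skin keratinocyte and hair genes, 2.0 for mast cell genes, 1.36 for adipocyte genes and 1.23 for lymphatic endothelial genes. List counts and medians are therefore given also without that array, with the same genes and probes normalised and fitted again, as are gene differences that its absence moved by over 1.5 times or turned. The epithelial label of the tumours was borne out by Krt8, at 13.19 to 13.90 on the 6 arrays, Krt18, at 11.85 to 12.71, and Cdh1, at 8.79 to 10.01, while the probe of Epcam was detected on none of the 6. In whole tumours, fewer cells of a type and less RNA per cell cannot be told apart.

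No single gene passed correction. Most tested endothelial (26 of 28) and vascular basement membrane genes (14 of 15) and Pdgfrb were lower in mean in TK/anti-Ang2 tumours, and most chemokine and cytokine (30 of 34) and p53 response genes (13 of 15) were higher in mean, counts that were not tested as sets. In limma's test 0 of 10544 genes (0%) had an adjusted p under 0.05, and the lowest adjusted p was 0.074. At an unadjusted p under 0.05 there were 788 genes (7.47%), of which 308 (2.92%) were higher and 480 (4.55%) lower in TK/anti-Ang2. Without TK/anti-Ang2 replicate 2 the adjusted count was 0 (0%) with a lowest adjusted p of 0.416, and 712 genes (6.75%) had an unadjusted p under 0.05, with 300 higher (2.85%) and 412 lower (3.91%). Other arrays moved the unadjusted count further: it was 494 when WT/IgG replicate 2 was left out, 454 for WT/IgG replicate 3, 485 for TK/anti-Ang2 replicate 1 and 1478 for TK/anti-Ang2 replicate 3. On the authors' processed values, which are scaled in another way, 407 genes were higher and 327 lower at an unadjusted p under 0.05. The median difference of all genes was -0.04 (-0.03 without replicate 2), 43.8% of genes were higher in mean (45.8%), and 220 genes differed by more than 1 log2 unit in either direction (188). The groups' arrays were fully separate for 1340 genes (12.7%), 504 of them higher (4.78%) and 836 lower (7.93%). With replicate 2 set aside, 2621 genes did not overlap (24.9%), at 10.8% higher and 14.1% lower, a count that grows because fewer arrays have to be separated. Of the 20 genes with the smallest p, 8 were again among the 20 smallest without that array. An exact two-sided permutation test of 3 arrays against 3 cannot go below 0.1.

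**Figure D1:**
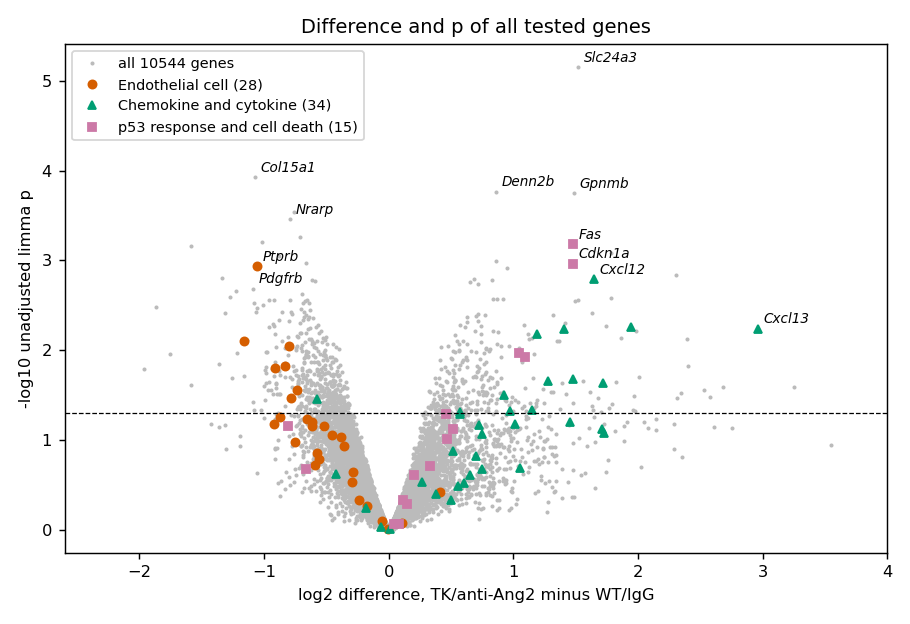
Each grey point is one of the 10544 tested genes, with its log2 difference (TK/anti-Ang2 minus WT/IgG) on the horizontal axis and -log10 of limma's unadjusted p on the vertical axis. Coloured symbols are the tested endothelial (28), chemokine and cytokine (34) and p53 response (15) genes, and the dashed line is an unadjusted p of 0.05. Slc24a3 stands highest, endothelial genes lie mostly left of 0 and chemokine genes mostly right of it.

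Slc24a3, which encodes a potassium-dependent sodium/calcium exchanger, had the smallest p. Its levels were 6.24, 5.96 and 6.32 on the WT/IgG arrays and 7.64, 7.76 and 7.69 on the TK/anti-Ang2 arrays. All 3 TK/anti-Ang2 arrays lay above all 3 WT/IgG arrays, by more than 1 log2 unit. The difference was 1.52 (SE 0.17, limma adjusted p = 0.074), and 1.49 without replicate 2 (adjusted p = 0.416). TK/IgG arrays were at 7.53, 7.53 and 7.12, also above every WT/IgG array. Under the other settings tried, the adjusted p ranged from 0.0362 with array weights to 0.524 without WT/IgG replicate 1, and it was 0.045 when only genes detected on all 6 arrays were tested.

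The other genes with the smallest p on the higher side did not pass correction (limma adjusted p of 0.469 to 0.657). Denn2b, a gene for a regulator of Rab GTPases, was at 9.93, 9.67 and 9.86 in WT/IgG and at 10.70, 10.67 and 10.67 in TK/anti-Ang2, a difference of 0.86 (SE 0.14). Gpnmb, a membrane glycoprotein gene active in macrophages that take up lipid, was at 8.82, 8.32 and 8.92 against 9.98, 10.07 and 10.47, a difference of 1.49 (SE 0.24). Other probes of Gpnmb, each detected on 3 of the 6 arrays, gave 0.32 and 0.33. The TK/IgG arrays held Gpnmb at 10.37, 9.72 and 10.37, within the range of or next to the TK/anti-Ang2 arrays. Neither gene overlapped between the groups, and without replicate 2 their differences were 0.86 and 1.54. Tnfrsf11b, which encodes osteoprotegerin, a decoy receptor for the osteoclast factor RANKL, was at 6.15, 5.99 and 6.37 against 7.47, 8.05 and 7.40, a difference of 1.47 (SE 0.29). Parm1, a mucin-like glycoprotein gene, was at 6.44, 6.17 and 6.27 against 7.75, 8.76 and 7.70, a difference of 1.78 (SE 0.36). Scd2, a fatty acid desaturase gene, differed by 0.86 (SE 0.18), Art3, an ADP-ribosyltransferase family gene, by 0.95 (SE 0.20) and Anxa8, an annexin gene, by 2.30 (SE 0.51). In all 5 of these genes the arrays of the groups did not overlap. Anxa8 was highest on TK/anti-Ang2 replicate 2, at 10.27 beside 8.93 and 7.90, and its difference was 1.69 without that array.

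On the lower side the smallest p belonged to Col15a1, the gene of a vascular basement membrane collagen described with its group below. Stard9, a mitotic kinesin gene, was at 7.35, 7.5 and 7.67 in WT/IgG and at 6.76, 6.75 and 6.73 in TK/anti-Ang2, a difference of -0.76 (SE 0.13). Coa7, a mitochondrial protein gene needed for respiratory chain assembly, was at 6.41, 6.58 and 6.56 against 5.89, 5.75 and 5.78, a difference of -0.71 (SE 0.14). Msx1, a homeobox gene of mesenchyme, was at 6.24, 6.54 and 6.36 against 5.49, 5.43 and 5.15, a difference of -1.02 (SE 0.20). The groups did not overlap for any of these 3, and TK/IgG arrays held Msx1 at 5.77, 5.16 and 5.18. C1qtnf3, an adipokine-like secreted protein gene, differed by -1.59 (SE 0.32), with detection on 3 WT/IgG arrays and 1 TK/anti-Ang2 array. Lin7a, a cell polarity scaffold gene, differed by -1.34 (SE 0.30). The probes of Npat, a histone gene transcription activator, and Brinp3 were not above background on any TK/anti-Ang2 array, and passed the detection filter only through the WT/IgG arrays. Against the lowest detected signal they were at least 1.45-fold and at least 1.22-fold lower there, with fitted differences of -0.88 and -0.67. limma's adjusted p was 0.606 to 0.657 for the genes of this paragraph other than Col15a1.

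**Figure D2:**
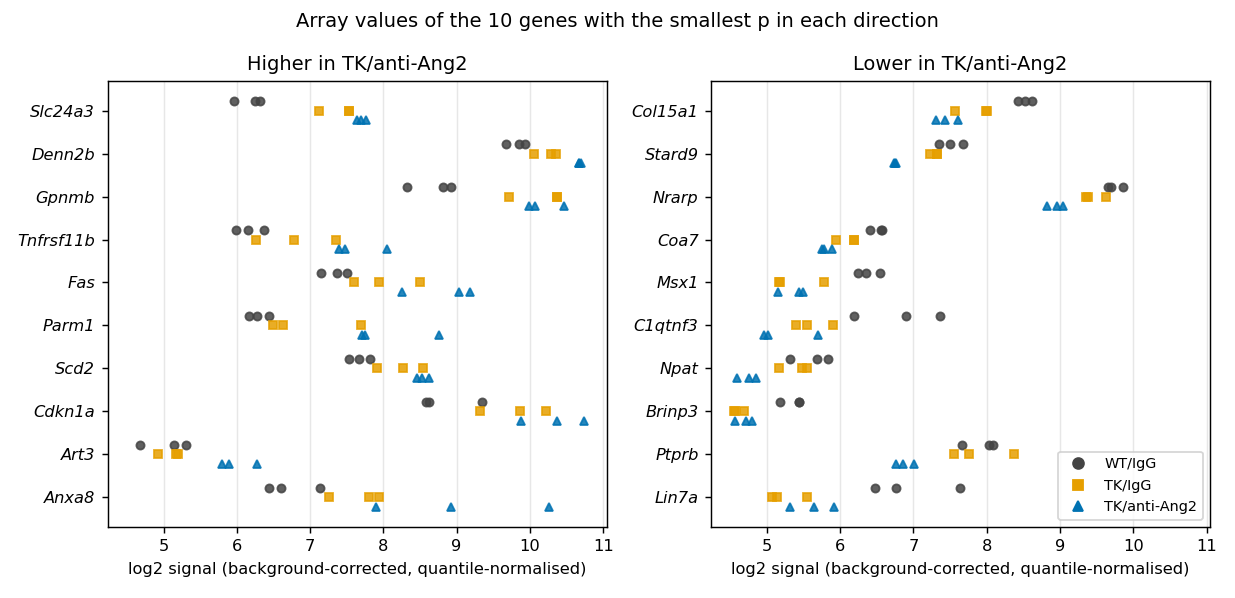
Log2 signal on each array (horizontal axis) of the 10 genes with the smallest p in each direction, ordered from the smallest p at the top. Circles are the 3 WT/IgG arrays, squares the 3 TK/IgG arrays and triangles the 3 TK/anti-Ang2 arrays. Slc24a3 and Gpnmb show TK/IgG arrays beside the TK/anti-Ang2 arrays, whereas for Ptprb the TK/IgG arrays, at 7.55 to 8.37, lie beside the WT/IgG arrays.

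The targeted promoter's own gene, Pdgfrb, was lower in TK/anti-Ang2 tumours. It was at 7.01, 6.93 and 7.33 on the WT/IgG arrays and at 5.60, 6.49 and 5.93 on the TK/anti-Ang2 arrays. The groups did not overlap, and replicate 2 was the highest TK/anti-Ang2 array. The difference was -1.09 (SE 0.25, limma adjusted p = 0.657), and -1.33 without replicate 2, when only Slc24a3 had a smaller p. TK/IgG arrays were at 6.11, 5.64 and 6.23. Leaving out each array in turn gave differences from -1.33 to -0.88.

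Pericyte and mural cell genes as a list were divided in direction. Of 24 genes listed, 23 were on the annotated probes and 17 passed the detection filter, of which 8 were higher and 9 lower, with a median of -0.001 (-0.03 without replicate 2) beside -0.04 for all genes. The sign of that median turned when TK/anti-Ang2 replicate 1 (0.07) was left out, and also for replicates 1 and 3 of WT/IgG (0.03 and 0.01). Those with an unadjusted p under 0.05 were Pdgfrb on the lower side and, on the higher side, Myh11, the smooth muscle myosin heavy chain gene, and Mylk, the myosin light chain kinase gene. Of all genes, 4.55% had one on the lower side and 2.92% on the higher side. Myh11 was detected on 0 WT/IgG arrays and on 3 TK/anti-Ang2 arrays, at least 1.26-fold higher there, with a fitted difference of 0.66, or 0.43 without replicate 2. It thus passed the detection filter only through the group in which it was higher, so its place among the called genes is not independent support. Mylk was at 8.50, 8.19 and 8.53 against 8.98, 8.81 and 8.79, a difference of 0.45 (SE 0.15) with no overlap. Cspg4, the NG2 proteoglycan gene of pericytes, was near background at 5.03, 5.67 and 5.38 against 5.61, 5.96 and 5.24, and its groups overlapped (difference 0.24, SE 0.24, or 0.07 without replicate 2). Acta2, smooth muscle actin, differed by -0.05 (SE 0.31), or -0.10 without replicate 2, the adhesion molecule gene Mcam by -0.50 (SE 0.24), or -0.33, and the channel subunit genes of pericytes Abcc9 and Kcnj8 by -0.34 and -0.47, the latter -0.72 without replicate 2. The pericyte marker Rgs5 passed detection on 1 of the 6 arrays and did not enter the test. The summed linear signal of the list was 5492 to 6511 in WT/IgG and 5917 to 6807 in TK/anti-Ang2, which overlap.

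Among the ligands of the receptor, Pdgfb, which endothelial cells use to recruit pericytes, was at 8.90, 8.70 and 9.35 against 9.99, 9.56 and 9.24. The difference was 0.61 (SE 0.27) with an unadjusted p under 0.05 in limma's test, and 1 TK/anti-Ang2 array lay within the WT/IgG range. Pdgfa differed by 0.17 (SE 0.18) and Pdgfc by -0.33 (SE 0.36), or -0.01 without replicate 2. Of the 5 tested genes of this family 3 were higher and 2 lower, with a median of 0.12 (-0.01 without replicate 2), which was 0.26 without WT/IgG replicate 1, 0.0012 without WT/IgG replicate 2 and -0.0035 without TK/anti-Ang2 replicate 1.

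In the angiopoietin system Ptprb was the lowest member, and the ligand and receptor genes had an unadjusted p above 0.05. Angpt2, whose product the antibody binds, was at 10.11, 9.90 and 10.20 in WT/IgG and at 10.61, 10.40 and 10.23 in TK/anti-Ang2. The groups just failed to overlap, with a difference of 0.35 (SE 0.24, limma adjusted p = 0.711), and a further probe detected on 4 arrays gave 0.83. Angpt1 differed by -0.40 (SE 0.29) and by -0.11 without replicate 2, near background. Tek, the Tie2 gene, was at 6.79, 6.24 and 6.67 against 6.13, 6.71 and 5.98, a difference of -0.29 (SE 0.26) with overlapping groups, and of -0.51 without replicate 2. Tie1, the companion receptor gene, differed by -0.0021 (SE 0.31), near background, with its probe detected on 4 of the 6 arrays. Ptprb was at 8.04, 7.66 and 8.09 against 6.86, 6.76 and 7.0, with every TK/anti-Ang2 array lower than every WT/IgG array. Its difference was -1.05 (SE 0.23, limma adjusted p = 0.657), and -1.0 without replicate 2. The TK/IgG arrays were at 7.76, 7.55 and 8.37. Of the 8 tested genes of the system, 2 were higher and 6 lower, with a median of -0.19 (-0.20 without replicate 2, -0.06 without WT/IgG replicate 1 and -0.11 without TK/anti-Ang2 replicate 3). Ptprb alone had an unadjusted p under 0.05, where 4.55% of all genes had one on the lower side.

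Most tested genes of endothelial cells were lower in mean in TK/anti-Ang2 tumours. Of 32 genes listed, all were on the platform and 28 were tested, of which 26 were lower and 2 higher, with a median difference of -0.58. An unadjusted p under 0.05 was found for 7 of the 28, all lower, where 4.55% of all genes had one on that side, and 8 had no overlap between the arrays of the groups, where 7.93% of all genes did. Without replicate 2, 27 of 28 were lower, the median was -0.61 and 8 had an unadjusted p under 0.05, all lower, where 3.91% of all genes had one. The mean level over the list was 8.05, 7.65 and 8.34 on the WT/IgG arrays and 7.45, 7.61 and 7.40 on the TK/anti-Ang2 arrays. The TK/anti-Ang2 arrays were all lower, the gap between the nearest arrays being small beside the spread within WT/IgG. TK/IgG arrays were at 7.72, 7.99 and 8.33. The count of 7 depended on single WT/IgG arrays, being 3 without replicate 3 of that group and 15 without its replicate 2, and the median ranged from -0.77 to -0.40 as each array was left out.

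The endothelial members with the lowest values spanned transcription factors, junctions and receptors. Sox17, a transcription factor gene of arterial endothelium, was at 6.12, 5.81 and 6.96 in WT/IgG and at 4.64, 5.40 and 5.36 in TK/anti-Ang2, a difference of -1.16 (SE 0.34) with no overlap. It was -1.30 without replicate 2. Cdh5, the gene of the junctional VE-cadherin, was at 7.90, 7.56 and 8.48 against 7.21, 6.81 and 7.17, again with no overlap. Its difference was -0.92 (SE 0.31), and a further detected probe of Cdh5 gave -1.21. Flt1, the VEGF receptor 1 gene, was at 9.73, 10.26 and 9.71 against 8.86, 9.18 and 9.26, a difference of -0.80 (SE 0.24). TK/IgG arrays held Flt1 at 9.79, 9.86 and 9.12. Rasip1, needed for vessel lumen formation, differed by -0.84 (SE 0.28) and Egfl7, a secreted endothelial factor gene, by -0.74 (SE 0.28), both without overlap. Nos3, the endothelial nitric oxide synthase gene, was at 6.44, 6.66 and 6.89 against 5.37, 6.56 and 5.70, so that replicate 2 reached the WT/IgG range. Its difference moved from -0.79 to -1.13 without that array. Cldn5, the endothelial tight junction claudin gene, was at 8.45, 7.30 and 9.21 against 7.41, 7.49 and 7.30, where WT/IgG replicate 2 was as low as the TK/anti-Ang2 arrays (difference -0.92, SE 0.44).

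Some defining endothelial genes had differences smaller than their SE. Pecam1, encoding the adhesion molecule CD31, was at 8.40, 7.17 and 8.42 in WT/IgG and at 7.89, 7.61 and 7.77 in TK/anti-Ang2, with WT/IgG replicate 2 the lowest of the 6. Its difference was -0.24 (SE 0.32), and a further detected probe of Pecam1 gave -0.68. Kdr, the VEGF receptor 2 gene, was near background at 5.38, 5.69 and 5.35 against 5.63, 5.17 and 5.45. Its difference was -0.06 (SE 0.21), or 0.07 without replicate 2, and signals so low may hide a difference. The 2 members that were higher were Thbd, the thrombomodulin gene, and Cd34, and without replicate 2 both were lower in mean. The probes of Erg, Ecscr and Clec14a were detected on none of the 6 arrays.

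**Figure D3:**
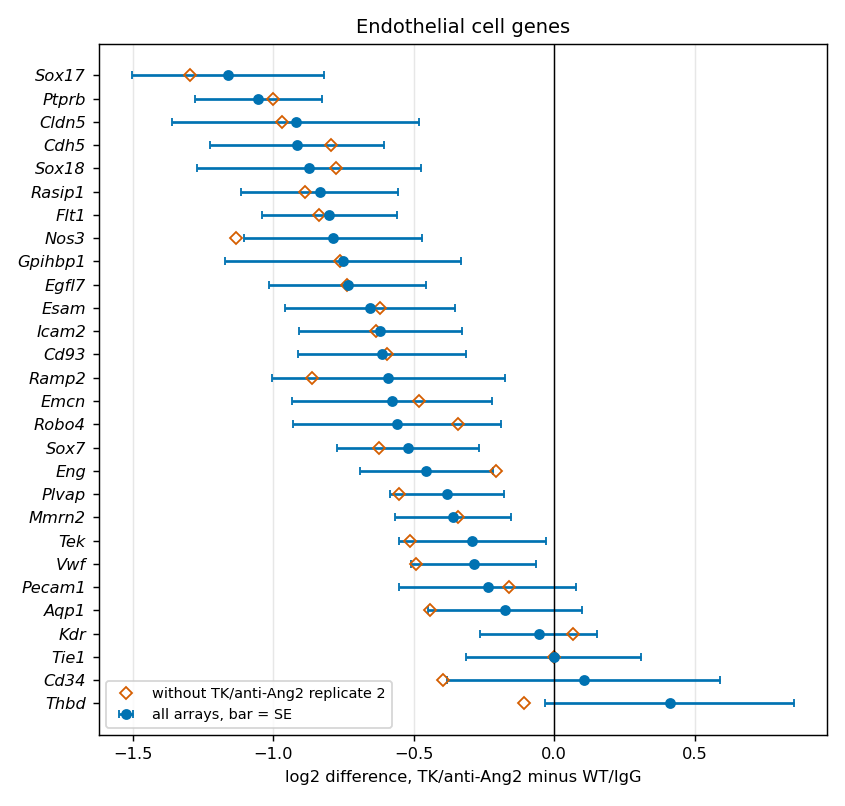
Log2 difference (horizontal axis, TK/anti-Ang2 minus WT/IgG) of the 28 tested endothelial genes, ordered from the lowest at the top. Filled circles with bars are limma estimates with their SE over all arrays, and open diamonds leave out TK/anti-Ang2 replicate 2. With all arrays 26 of the 28 lie left of 0.

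Genes of the vascular basement membrane, the sheet on which endothelium and pericytes rest, were mostly lower in mean. Of 19 genes listed, 15 were tested, of which 14 were lower and 1 higher, with a median of -0.29 (13 lower and -0.34 without replicate 2), which was -0.11 without WT/IgG replicate 3. Col15a1, the collagen XV gene, was at 8.42, 8.52 and 8.62 in WT/IgG and at 7.61, 7.43 and 7.31 in TK/anti-Ang2. The groups were clearly separate, with a difference of -1.07 (SE 0.17, limma adjusted p = 0.469), -1.06 without replicate 2, and -1.15 to -1.0 as each array was left out. TK/IgG arrays were at 7.99, 7.56 and 8.01, all below WT/IgG, with 1 of them within the TK/anti-Ang2 range. Lamb1, a laminin chain gene, was at 6.99, 7.15 and 7.08 against 6.31, 6.30 and 6.86, a difference of -0.59 (SE 0.18). Hspg2, the perlecan gene, was at 11.90, 12.39 and 12.11 against 11.26, 11.71 and 11.82, a difference of -0.54 (SE 0.19). These 3 of 15 genes had an unadjusted p under 0.05 and no overlap, where 4.55% and 7.93% of all genes did on the lower side. The collagen IV genes Col4a1 and Col4a2 differed by -0.33 (SE 0.22) and -0.29 (SE 0.28), and the exception was Lamb3, a laminin chain of epithelia, at 0.75 (SE 0.63).

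Pathways that act on vessels were mixed. In the Notch pathway, which restrains sprouting, 5 of 12 tested genes were higher and 7 lower, with a median of -0.005 (-0.04 without replicate 2), which was 0.07 without WT/IgG replicate 3 and -0.11 without TK/anti-Ang2 replicate 1. Nrarp, a Notch target that feeds back on the pathway, was at 9.65, 9.86 and 9.70 in WT/IgG and at 8.82, 8.96 and 9.05 in TK/anti-Ang2. All TK/anti-Ang2 arrays were lower, by -0.79 in mean (SE 0.14, limma adjusted p = 0.611), and TK/IgG arrays were between, at 9.39, 9.63 and 9.36. Notch4, the endothelial Notch receptor gene, was at 8.96, 8.37 and 9.44 against 8.18, 8.21 and 8.21, a difference of -0.72 (SE 0.29). The ligand gene Dll1 differed in the other direction, by 0.74 (SE 0.28), and the targets Hes1 and Hey1 by -0.05 (SE 0.27) and 0.07 (SE 0.38), both of which turned sign without replicate 2 (0.09 and -0.09).

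Of the VEGF ligands and receptors, 4 of 9 tested genes were higher and 5 lower, with a median of -0.06 (-0.12 without replicate 2), which was 0.05 without WT/IgG replicate 2 and 0.01 without WT/IgG replicate 3. Vegfa, the main angiogenic ligand gene, was at 10, 9.53 and 9.52 against 10.22, 10.47 and 9.78, with overlapping groups (difference 0.47, SE 0.33). Vegfc, the lymphatic ligand gene, differed by 0.53 (SE 0.20) and the co-receptor gene Nrp2 by -0.59 (SE 0.24), each with an unadjusted p under 0.05, while a further probe of Nrp2 gave -0.12. Tip cell and apelin genes had a median of 0.19 (0.23 without replicate 2), with 7 of 10 higher, but it was -0.14 when WT/IgG replicate 2 and -0.06 when TK/anti-Ang2 replicate 1 was left out. Their lowest value was that of Aplnr, the apelin receptor gene, at 7.27, 6.89 and 7.66 against 5.63, 5.64 and 5.27. That difference of -1.76 (SE 0.55) left no overlap, and the TK/IgG arrays spread from 4.76 to 7.42.

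Most chemokine and cytokine genes were higher in mean. Of 42 genes listed 34 were tested, of which 30 were higher and 4 lower, with a median of 0.75 (0.65 without replicate 2, with the same split of 30 and 4). An unadjusted p under 0.05 was found for 12 higher and 1 lower member, where 2.92% and 4.55% of all genes had one, and 8 had no overlap on the higher side, where 4.78% of all genes did. The mean level of the list was 8.32, 7.98 and 7.87 on the WT/IgG arrays and 9.03, 9.41 and 8.36 on the TK/anti-Ang2 arrays. TK/anti-Ang2 replicate 3 barely exceeded the highest WT/IgG array, and TK/IgG arrays were at 8.46, 7.98 and 8.64. The count of 12 was 7 without TK/anti-Ang2 replicate 2, 20 without its replicate 3, and 6 without WT/IgG replicate 2 or 3, and the median was 1.20 without TK/anti-Ang2 replicate 3. Without TK/anti-Ang2 replicate 2, 2.85% of all genes had an unadjusted p under 0.05 on the higher side.

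Cxcl12, the ligand of Cxcr4 that retains and attracts leukocytes, had the smallest p of the list. It was at 6.65, 7.35 and 6.31 in WT/IgG and at 8.41, 9.07 and 7.77 in TK/anti-Ang2, with no overlap. The difference was 1.65 (SE 0.37, limma adjusted p = 0.657), and 1.33 without replicate 2. Cxcl1, a neutrophil attractant, was at 9.82, 8.78 and 9.54 against 11.90, 11.92 and 10.16, a difference of 1.95 (SE 0.54) with no overlap. Cxcl13, the B cell attractant, had the largest difference of the list, at 5.89, 4.61 and 5.95 against 8.34, 10.26 and 6.75. All 3 TK/anti-Ang2 arrays were higher, unequally, and the difference of 2.97 (SE 0.83) became 2.07 without replicate 2. TK/IgG arrays held Cxcl13 at 4.74, 4.99 and 6.45. The macrophage inflammatory genes Ccl3 and Ccl4 differed by 1.72 (SE 0.63) and 1.41 (SE 0.39), and Csf2, the gene of GM-CSF, by 1.19 (SE 0.34), all without overlap. The interleukin gene Il1a was at 6.42, 5.33 and 6.18 against 8.38, 6.81 and 6.58, a difference of 1.28 (SE 0.46). Il6 differed by 0.97 (SE 0.42) with overlapping groups, and by 0.52 without replicate 2. The exception with an unadjusted p under 0.05 was Csf1, the macrophage growth factor gene, at 8.75, 9.28 and 8.66 against 8.22, 8.33 and 8.42, a difference of -0.57 (SE 0.23).

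Many chemokine genes carry sites for NF-kB, so the 250 bases before the annotated starts were searched on both strands for an NF-kB site motif. Of the 34 tested members 25 had a window in the RefSeq promoter table, and 7 of these (28%) held a match, Ccl9, Csf1, Cxcl1, Cxcl10, Cxcl2, Il6 and Lif, against 8.23% of the 27025 genes with a window. A match describes the letters and is not evidence of binding. Since many chemokine genes are known to carry such sites, that share describes the choice of genes and not these tumours. The windows of the list's gene with the smallest p and of a member with matches are shown, both on the + strand of GRCm38.p6 from RefSeq, at chr6:117168285-117168534 for Cxcl12, with 0 matches, and at chr5:90890995-90891244 for Cxcl1, with 2 overlapping matches in capitals, which begin 71 bases before the start.
Cxcl12: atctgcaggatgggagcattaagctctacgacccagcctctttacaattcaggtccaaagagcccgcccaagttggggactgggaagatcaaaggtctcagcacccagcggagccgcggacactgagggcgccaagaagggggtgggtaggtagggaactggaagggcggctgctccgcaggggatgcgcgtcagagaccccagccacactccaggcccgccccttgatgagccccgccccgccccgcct
Cxcl1: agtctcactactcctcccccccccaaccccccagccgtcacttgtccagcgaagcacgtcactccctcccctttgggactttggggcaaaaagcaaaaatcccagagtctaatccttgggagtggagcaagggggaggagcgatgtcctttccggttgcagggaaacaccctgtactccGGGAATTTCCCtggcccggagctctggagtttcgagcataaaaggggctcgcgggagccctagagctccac

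Target genes of p53 and genes of cell death were higher in 13 of 15 tested members of 21 listed, with a median of 0.34 (12 of 15 and 0.18 without replicate 2), which was 0.14, with 10 of 15 higher, without WT/IgG replicate 2. An unadjusted p under 0.05 was found for 4, all higher, with all arrays, where 2.92% of all genes had one, and for 4 without replicate 2, where 2.85% did. Of the 15, 5 had no overlap on the higher side, where 4.78% of all genes had none. Cdkn1a, the gene of the cell cycle inhibitor p21, was at 9.35, 8.63 and 8.59 in WT/IgG and at 10.37, 10.74 and 9.88 in TK/anti-Ang2. The groups did not overlap, and the difference was 1.48 (SE 0.31, limma adjusted p = 0.657), or 1.27 without replicate 2. TK/IgG arrays held Cdkn1a at 10.22, 9.32 and 9.87. Fas, the death receptor gene, was at 7.37, 7.14 and 7.51 against 9.03, 9.18 and 8.25, a difference of 1.48 (SE 0.29) with no overlap. TK/IgG arrays held Fas at 7.94, 7.60 and 8.49. Plk2, a polo-like kinase gene induced by stress, differed by 1.05 (SE 0.33) and Gadd45b, a stress sensor gene, by 1.10 (SE 0.35). Mdm2, the gene of the p53 ubiquitin ligase, differed by 0.20 (SE 0.16) and Ccng1, cyclin G1, by 0.47 (SE 0.25), or 0.27 without replicate 2.

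p53 binds pairs of a decamer motif, and the same windows were searched for a single p53 decamer on both strands. Of the 15 tested members 11 had a window and 5 (45.5%) held a match, Ccng1, Cdkn1a, Gadd45a, Mdm2 and Sesn1, against 8.2% of the 27025 genes. The list holds target genes of p53, so that share describes the choice of genes and not these tumours. The window of Cdkn1a is shown because its gene led this group together with Fas. It lies at chr17:29090729-29090978 of GRCm38.p6, + strand, from RefSeq, at the upstream of 2 annotated starts of Cdkn1a, and has 2 matches, in capitals, the more distant of which begins 73 bases before that start. The window at the other annotated start of Cdkn1a held 0 matches, and so did the window of Fas.
Cdkn1a: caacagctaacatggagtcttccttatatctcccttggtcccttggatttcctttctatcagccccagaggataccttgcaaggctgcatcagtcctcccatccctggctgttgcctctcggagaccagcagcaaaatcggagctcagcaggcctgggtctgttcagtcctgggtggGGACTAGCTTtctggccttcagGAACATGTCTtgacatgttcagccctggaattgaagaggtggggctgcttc

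Genes of the unfolded protein and stress response were higher in 19 of 23 tested members, with a median of 0.29 (17 of 23 and 0.24 without replicate 2). Ddit3, the gene of the stress transcription factor CHOP, was at 7.89, 7.88 and 7.74 in WT/IgG and at 9.42, 8.86 and 8.57 in TK/anti-Ang2. The groups did not overlap, and the difference was 1.11 (SE 0.32). Calr, the calreticulin gene, differed by 0.70 (SE 0.22), Phgdh, the entry enzyme of serine synthesis, by 0.73 (SE 0.25) and Edem1, of endoplasmic reticulum degradation, by 0.51 (SE 0.18). These 4 were higher with an unadjusted p under 0.05, and Ern1, the gene of the sensor IRE1, was lower with one, by -0.53 (SE 0.22), where 2.92% and 4.55% of all genes had one on those sides.

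Hypoxia response and glycolysis genes were higher in 31 of 36 tested members, by a median of 0.27 (28 of 36 and 0.17 without replicate 2), but 0 had an unadjusted p under 0.05 in limma's test and 1, a higher member, had no overlap between the groups. Of all genes, 2.92% were higher at such a p, and 4.78% were higher without overlap. Without TK/anti-Ang2 replicate 3, 8 of the 36 had an unadjusted p under 0.05, all higher, as had 506 of all 10544 genes on that side. The mean level was 9.69, 9.57 and 9.41 in WT/IgG and 9.90, 10.16 and 9.55 in TK/anti-Ang2, so the groups overlapped. The glucose transporter gene Slc2a1 differed by 0.35 (SE 0.35) and the carbonic anhydrase gene Car9 by 0.02 (SE 0.47), or by 0.19 and -0.24 without replicate 2. Angptl4, an inhibitor of lipoprotein lipase, was at 9.39, 9.19 and 9.0 against 10.41, 11.36 and 9.12, overlapping and highest on replicate 2. Its difference was 1.10 (SE 0.51), and 0.57 without that array. The HIF core motif ACGTG was in the windows of 17 of 30 members with a window (56.7%) and of 18.5% of all genes. The RBPJ core motif TGGGAA, through which Notch acts, was in those of 1 of 10 Notch pathway members (10%) and of 24.1% of all genes, on either strand. Matches to these motifs and to the NF-kB and p53 motifs were counted separately, so windows can hold several. The hypoxia list was chosen for its response to hypoxia, so its HIF share describes the choice of genes and not these tumours.

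Fibroblast and interstitial matrix genes depended on TK/anti-Ang2 replicate 2. With all arrays 21 of 30 tested members of 36 listed were lower and 9 higher, with a median of -0.22. The 1 member with an unadjusted p under 0.05 was Col6a2, where 4.55% of all genes had one on the lower side. Without replicate 2, 25 were lower and 5 higher, the median was -0.60, and 13 had an unadjusted p under 0.05, all lower, where 3.91% of all genes had one. The mean level of the list was 9.26, 8.71 and 8.77 in WT/IgG, 8.39, 9.62 and 8.13 in TK/anti-Ang2 and 8.45, 8.21 and 8.33 in TK/IgG. Replicate 2 was thus the highest of all 9 arrays and the other TK/anti-Ang2 arrays were below every WT/IgG array. The median was 0.03 without TK/anti-Ang2 replicate 3 and -0.04 without WT/IgG replicate 1.

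Col3a1, a fibrillar collagen gene of stroma, was at 9.61, 8.79 and 9.30 in WT/IgG and at 7.77, 10.16 and 7.29 in TK/anti-Ang2. Its difference was -0.83 (SE 0.64), and -1.71 without replicate 2, while a further probe of Col3a1 detected on all 6 arrays gave -0.16 with all arrays. Col1a1, the main fibrillar collagen gene, was at 10.35, 9.34 and 9.96 against 8.76, 10.19 and 8.01, and moved from -0.90 (SE 0.53) to -1.50. Fap, the fibroblast activation protein gene, was at 7.31, 6.58 and 6.85 against 5.96, 7.60 and 5.88, and moved from -0.44 (SE 0.42) to -1.0. In all 3 genes replicate 2 lay within or above the WT/IgG range and the other arrays below it. Mfap2, a microfibril gene, moved from -0.62 to -1.40 and Lum, a small proteoglycan gene, from 0.06 to -1.01. Decorin (Dcn) was an exception, at 0.76 (SE 0.57) with all arrays and 0.13 without replicate 2. Col6a2, a collagen VI chain gene, was at 8.51, 8.16 and 8.56 against 7.62, 8.16 and 6.85, and differed by -0.87 (SE 0.34), or by -1.18, and a further probe of Col6a2 gave -0.42 with all arrays. The TK/IgG arrays held Col3a1 at 7.62, 7.48 and 8.19, below every WT/IgG array.

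**Figure D4:**
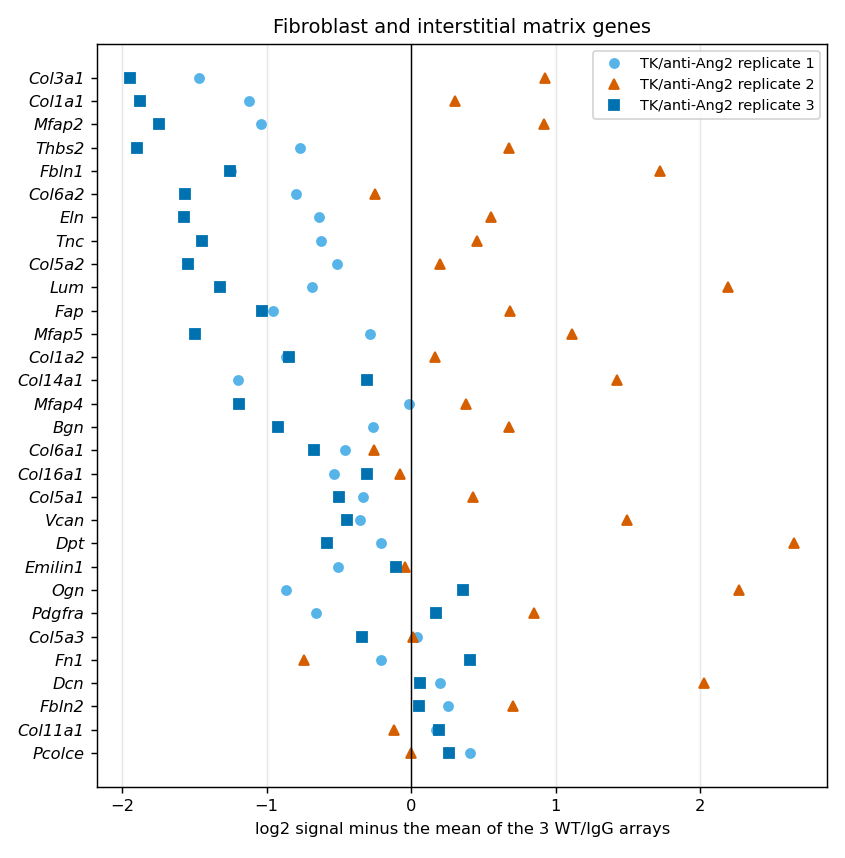
Log2 signal minus the mean of the 3 WT/IgG arrays (horizontal axis) for the 30 tested fibroblast and interstitial matrix genes on each TK/anti-Ang2 array. Triangles are replicate 2, circles replicate 1 and squares replicate 3. Replicate 2 is to the right of the other arrays for most genes.

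Genes of mesenchymal transition and Met had a median of -0.16 (-0.27 without replicate 2 and -0.03 without TK/anti-Ang2 replicate 3), with 14 of 21 lower. The forkhead gene Foxc2 differed by -0.69 (SE 0.24), Zeb2 by -0.53 (SE 0.23) and Twist2 by -1.19 (SE 0.63), which was -1.97 without replicate 2. Met, the hepatocyte growth factor receptor gene, was at 4.69, 4.90 and 5.44 in WT/IgG and at 5.42, 4.65 and 5.12 in TK/anti-Ang2, near background and overlapping (difference 0.06, SE 0.25, or 0.26 without replicate 2). Matrix remodelling enzymes had a median of 0.37, with 15 of 22 higher, and of 0.01 without replicate 2 and 0.59 without TK/anti-Ang2 replicate 3. The macrophage metalloelastase gene Mmp12, at 9.23, 9.60 and 8.79 against 10.28, 10.07 and 9.70, differed by 0.81 (SE 0.29). Epithelial and 4T1 tumour cell genes were higher in 10 of 15, by a median of 0.12 (0.35 and 12 without replicate 2). That direction turned without WT/IgG replicate 1 (6 of 15, -0.10) and without TK/anti-Ang2 replicate 1 (7 of 15, -0.06), and the median was 0.32 without WT/IgG replicate 3 and 0.06 without TK/anti-Ang2 replicate 3. The mucin gene Muc1 was at 5.79, 5.55 and 5.82 against 8.40, 6.18 and 6.55. Its difference was 1.32 (SE 0.51) with no overlap. Cell cycle and mitosis genes had a median of 0.12 (0.21), with 19 of 30 higher, and it ranged down to 0.02, with 15 of 30 higher, without WT/IgG replicate 3 and to 0.04 without TK/anti-Ang2 replicate 1. Of the 30, 1 was higher at an unadjusted p under 0.05, where 2.92% of all genes were. Respiratory chain genes had a median of 0.001 (-0.04), with 15 of 29 higher, and -0.05 to 0.04 as each array was left out. Their direction followed the scaling, with 6 of 29 higher (-0.08) under median scaling and 21 of 29 (0.14) on the authors' values.

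Interferon response genes, which were not listed as markers of a cell type, and the lists of immune cell markers gave no common direction. Interferon response genes were higher in 19 of 23 tested members with a median of 0.41 and 0 at an unadjusted p under 0.05, where 2.92% of all genes were on the higher side. Without replicate 2 they were higher in 23 of 23, with a median of 0.62 and 8 at an unadjusted p under 0.05, where 2.85% of all genes were. The median was 0.21 without TK/anti-Ang2 replicate 3 and 0.24 without WT/IgG replicate 1, with 15 of 23 higher in both cases. Their mean level was 8.04, 8.75 and 8.48 in WT/IgG and 9.05, 8.14 and 9.30 in TK/anti-Ang2, so replicate 2 lay within the WT/IgG range and the other 2 above it. Isg15, a ubiquitin-like interferon target, was at 9.31, 8.54 and 9.08 against 10.56, 8.88 and 10.24, and differed by 0.92 (SE 0.54), or by 1.43 without replicate 2. On TK/IgG arrays it was at 9.32, 9.22 and 10.91. For T and NK cells 10 of 13 genes were higher, by a median of 0.58 (0.64), which was 0.21 without WT/IgG replicate 1, 0.88 without WT/IgG replicate 3 and 0.35 without TK/anti-Ang2 replicate 3. Their largest differences were those of Cd3g, at 1.15 (SE 0.69), and Prf1, at 1.11 (SE 0.60), both with overlapping groups. Of the 13, 2 were higher and 1 lower without overlap, where 4.78% and 7.93% of all genes were. The costimulatory receptor gene Icos was at 4.98, 4.67 and 5.29 against 5.74, 6.02 and 5.83, a difference of 0.88 (SE 0.25). Its probe was near background, detected on 4 of the 6 arrays, and another probe detected on 2 arrays gave -0.28. The checkpoint gene Ctla4 differed by 0.86 (SE 0.38), and neither Icos nor Ctla4 overlapped between the groups. The probes of the defining genes Cd4 and Cd8a were detected on none of the 6 arrays.

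Macrophage genes were higher in 10 and lower in 10 of 20 tested, with a median of -0.02, and lower in 17 with a median of -0.37 without replicate 2. It was above 0 when TK/anti-Ang2 replicate 3 (0.08) was left out, as for WT/IgG replicate 1 (0.10), and -0.16 without WT/IgG replicate 2. Gpnmb was their one member with an unadjusted p under 0.05 with all arrays, where 2.92% of all genes had one on the higher side. The neutrophil and granulocyte median was 0.46, with 12 of 17 higher, and 0.08 without replicate 2, with 0.28 and 1.0 when replicates 1 and 3 of TK/anti-Ang2 were left out. Dendritic cell and MHC class II genes had a median of -0.40 (-0.26), with 6 of 8 lower. It ran from -0.98 without WT/IgG replicate 1 to -0.09 without WT/IgG replicate 2 and -0.04, with 4 of 8 lower, without WT/IgG replicate 3. B and plasma cell genes had a median of 0.19 (0.24) with 4 tested, and 0.10 without WT/IgG replicate 3 and 0.09 without TK/anti-Ang2 replicate 1. Complement genes had one of 0.78 (0.15), with 9 of 11 higher. Without replicate 2 the largest differences of that list shrank. C2 moved from 1.23 to 0.72, C4b from 1.05 to 0.33, Cd55 from 0.97 to 0.39 and Serping1 from 0.94 to 0.14. Within that list C1s1, a classical pathway protease gene, was at 5.37, 4.72 and 4.89 against 5.89, 6.05 and 5.65. Its difference was 0.87 (SE 0.21), and 0.77 without replicate 2. On WT/IgG replicates 2 and 3 it was below the lowest detected signals of 5.06 and 5.03, so it passed the detection filter mainly through the group in which it was higher. The median of erythroid and platelet genes was -0.69 (-1.18), with 6 of 9 lower, and it was -1.32 without WT/IgG replicate 1, -0.25 without WT/IgG replicate 2 and -0.02 without TK/anti-Ang2 replicate 3. The 2 members with an unadjusted p under 0.05 were platelet genes and higher, where 2.92% of all genes were. They were Ppbp, at 1.64 (SE 0.71), or 1.07 without replicate 2, and Pf4, at 1.19 (SE 0.48), or 0.71. The erythroid genes Hbb-b2 and Alas2 differed by -1.36 (SE 0.67) and -1.06 (SE 0.83), the latter -1.59 without replicate 2. Without that array 0 members were higher and 1 was lower at that level.

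Markers of tissues next to the tumour moved with single arrays, and their part in the results above was not tested. The summed linear signal of 7 skin keratinocyte and hair genes was 1674 to 5109 in WT/IgG, 59080 on TK/anti-Ang2 replicate 2 and 2618 to 6495 on the other TK/anti-Ang2 arrays. Their median difference was 1.33, with 7 of 7 higher, and -0.15, with 5 of 7 lower, without replicate 2, and it was 2.24 and 2.49 without TK/anti-Ang2 replicates 1 and 3. Krt10, a keratin of differentiated epidermis, was at 9.06, 8.62 and 9.81 against 9.30, 14.08 and 8.74, a difference of 1.54 (SE 1.25), or -0.14 without replicate 2. The probes of the hair keratins Krt25, Krt27 and Krt71 were detected on none of the 6 arrays. The sum of 11 adipocyte genes was 1640 to 2565 in WT/IgG, 12040 on replicate 2 and 2410 to 4247 on the others, with a median difference of 1.25 (0.49). Adipoq, the adiponectin gene, was at 7.20, 4.91 and 6.90 against 9.16, 10.93 and 6.75, a difference of 2.61 (SE 1.28), or 1.63. The sum of 10 mast cell genes was 1272 to 2459, 10320 and 1957 to 3588 in the same order, with a median of 1.44 (0.70). Lymphatic endothelial genes, with 4 tested and Prox1 not detected, had a median of 0.68 (-0.17), and 0.35 without WT/IgG replicate 3 and above 1 without TK/anti-Ang2 replicate 1 or 3. Nerve and Schwann cell genes, also with 4 tested, had one of -0.09 (-0.22), and 0.07 without WT/IgG replicate 3. Skeletal muscle genes went the other way. Their sum was 2977 to 15700 in WT/IgG, 2352 on replicate 2 and up to 27980 on the other TK/anti-Ang2 arrays, and the median of 14 genes was -0.03, or 0.87 without replicate 2. Any array of these groups moved it, from -1.52 without TK/anti-Ang2 replicate 3 upwards, with -0.83 without WT/IgG replicate 2 and 0.82 without WT/IgG replicate 3.

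**Figure D5:**
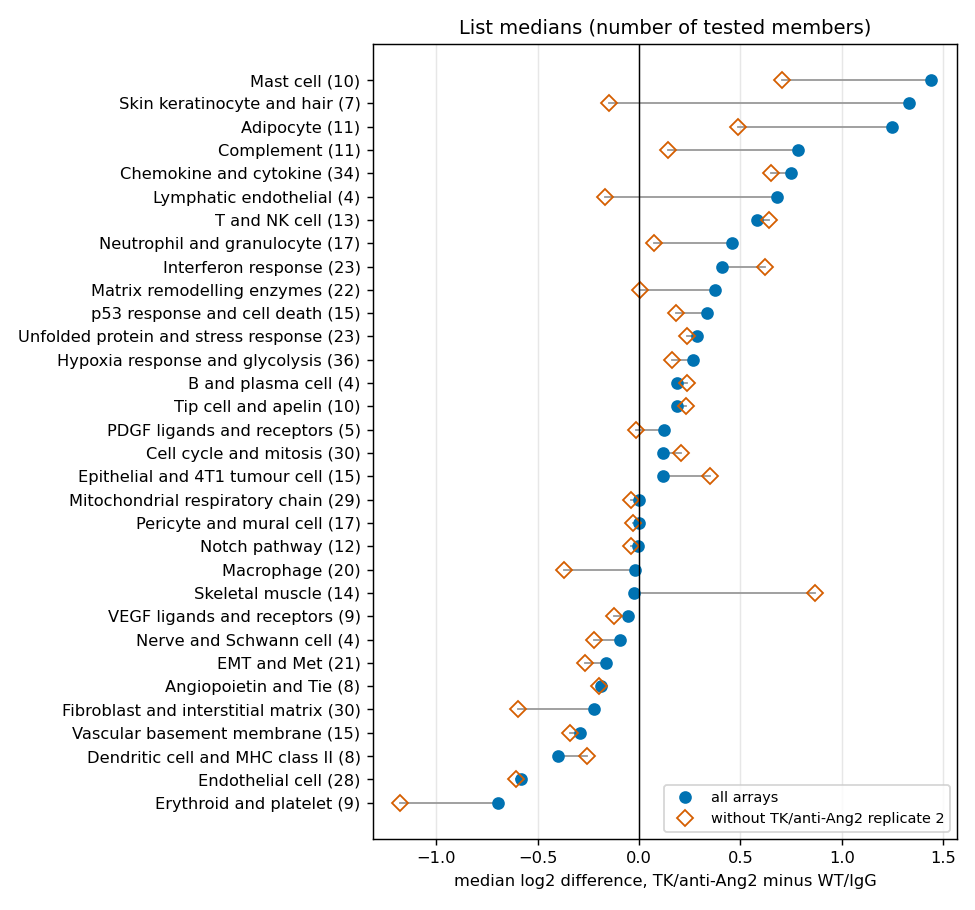
Median log2 difference (horizontal axis, TK/anti-Ang2 minus WT/IgG) of the tested members of each of the 32 gene lists, with their number in parentheses. Filled circles use all arrays, open diamonds leave out TK/anti-Ang2 replicate 2, and a line joins the 2 values of a list. Endothelial (-0.58 and -0.61), chemokine (0.75 and 0.65) and basement membrane (-0.29 and -0.34) values lie close together, and skin values (1.33 and -0.15) lie apart.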

How the data were processed

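Total RNA of the tumours was labelled as biotinylated cRNA for Illumina bead arrays, per the labels' protocols. Per the file headers, the authors deposited for each of 45281 probes an average signal, which is a linear, unnormalised intensity, with its detection p-value. The submitters' processing notes name GenomeStudio, whose version is not given in the sources used here. Processed intensity values of the authors, with medians of 12.6 to 19.4, followed the deposited signal linearly within every array, to a residual of at most 0.102. They go below 0 and served as an alternative. Another 6 columns for 3 arrays carry no name found among the samples and were left aside.

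Signals of 9 arrays were background-corrected from the detection p-values and quantile-normalised (neqc of limma 3.58.1 in R 4.3.3, offset 16). Of the probes, 34885 had 1 gene symbol, 18 several and 10378 none, and 34807 were matched to RefSeq names of GRCm38.p6. Each gene was represented by its brightest probe among those detected. The comparison was fitted with lmFit and eBayes of limma to the 9 arrays in 3 groups, with Benjamini-Hochberg adjustment over all genes at 0.05, and the fit was tested on simulated data. For a probe without detection throughout a group, the fold is a bound against the lowest detected signal of each array. The number of arrays limits the precision.

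The members and the 32 gene lists were chosen with earlier results of these data known, and no list was tested as a set. The naming rule took 13 genes of vessels, pericytes and Met signalling, the 10 genes with the smallest p in each direction and the 4 largest differences of each list. Other members at an unadjusted p under 0.05 and textbook members of a list were named after their values were seen. Alternatives changed, singly, how background was corrected, the scaling, use of the authors' values, the filter on detection, averaging over probes, weights per array, the variance model, a block for replicate number, and the arrays included.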

Additional observations from a re-analysis of the deposited data

How the results depend on the processing

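The depth of evidence is limited by 3 arrays a group and by probes near background. Slc24a3 had the smallest p under each alternative except the replicate block, and no other gene passed an adjusted p of 0.05 under any. It was past an adjusted p of 0.05, as 1 gene, when genes had to be detected on all 6 arrays (0.045) and with array weights (0.0362). The count at an unadjusted p under 0.05 was 1270 (480 higher and 790 lower) without a detection filter, which tests more genes, and 1774 (697 higher and 1077 lower) with array weights, where the cause was not tested. Leaving out each array in turn, it ranged from 454 to 1478, with 190 to 506 higher and 263 to 972 lower. Non-overlapping genes numbered 2215 without a filter, and 1924 to 3448 where an array of either group was left out, when fewer arrays have to be separated. Median scaling in place of quantile normalisation moved the median of all genes from -0.04 to -0.11. The direction of lists with medians near 0 depended on the scaling. Median scaling and the authors' values gave 15 and 23 of 30 cell cycle genes higher, and 6 and 12 of 20 macrophage genes. Endothelial genes stayed at 2 of 28 higher under both.

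Replicate numbers were not used to pair the samples in the main fit. Deviations of same-numbered TK/anti-Ang2 and WT/IgG arrays from their group means correlated at -0.0593, -0.134 and 0.229. Those of differently numbered arrays correlated at -0.285 to 0.269. With 3 arrays a group these values cannot establish whether the numbers pair the samples. With the replicate number as a block, 0 genes passed an adjusted p of 0.05 (lowest 0.174, Cxcl12), and 850 had an unadjusted p under 0.05, 358 higher and 492 lower. Of the list medians, 19 values under an alternative moved by more than the spread and 685 did not. For genes with several detected probes, 3 named genes (Atp5a1, Cdk1 and Top2a) had a further probe of opposite sign.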
